A study of Danio rerio with 3 samples.

Results

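The cells described here are myb-expressing blood progenitors sorted from zebrafish trunks 36 hours after fertilization and chosen by 3 measured genes. A cell was taken as a member when it had 500 or more detected genes, at least 1 count of myb, no count of cdh5 (VE-cadherin, a junction protein of endothelial cells) and less than 500 CPM of npsn (counts scaled to 1e6 per cell), which codes for a protease of zebrafish neutrophils. Of 88 cells with 500 or more genes, 62 were members: 37 of 53 in the library DP 1 (69.8%, exact 95% interval 55.7 to 81.7%) and 25 of 35 in DP 2 (71.4%, interval 53.7 to 85.4%). Counts were given for 56 cells of DP 1 and 37 of DP 2, whereas the deposited cell information lists 55 and 93. The shares therefore describe cells with counts and not all cells listed. Because myb, cdh5 and npsn chose the cells, their levels are not results, and every comparison of members with the other cells is a description without a test.

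Blood stem and progenitor cells of vertebrates arise from hemogenic endothelium, endothelial cells in the floor of the dorsal aorta that round up, leave the vessel wall and enter the circulation. As they do so, endothelial adhesion genes are switched off and a blood program comes on, in which the transcription factor Myb is needed for definitive blood cells and Ikzf1 (Ikaros) marks early progenitors. Fli1a and Lmo2, an ETS-family factor and a bridging protein of blood transcription complexes, act in both endothelial and blood precursors.

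The embryos carried GFP under spi2 control (spi2:Gal4;UAS:GFP) together with a kdrl:mCherry reporter, and the deposited cell table gives both DP libraries as kdrl+spi2+, that is, positive for both. A fluorescent protein outlasts the activity of its driver gene, so a sorted cell need not still transcribe it. Each cell was processed in its own well by STRT-seq, a plate-based method. The SP cells (kdrl-spi2+) of the series were not analysed here, all analysed cells had the same genotype and stage with no treatment, and the labels do not say whether DP 1 and DP 2 came from separate embryos. Nor do the labels say whether the libraries came from separate sorts, and a difference between them compares 1 library with 1 library.

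Summed over members, DP 1 held 6484192 counts and DP 2 held 2196361. A member of DP 1 had 18469 to 903548 counts, with 123677 in the median cell, and a member of DP 2 had 7256 to 333560, with 61952 in the median cell; the median numbers of detected genes were 3543 and 2728. The deepest member supplied 13.9% of the counts of DP 1 and 15.2% of those of DP 2. For comparison, 11 cells had a cdh5 count (6 and 5, in DP 1 and DP 2) and 7 had npsn at or above the limit (5 and 2). A further 8 cells, in neither of these classes, had no myb count. In DP 2 the comparison classes were thin, since 1 cell gave 54.3% of the counts of the cdh5-positive cells and 94.4% of those of the npsn-high cells. Members of both libraries carried 16 of the same plate barcodes, and 0 cells had identical counts.

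Near the limits of the rule, the highest npsn level inside was 274 CPM and the lowest outside was 1521 CPM, and 48 members had some npsn count. The lowest myb count among members was 1, found in 2 cells, and 6 members had fewer than 5. The member with the fewest genes had 896, and the richest removed cell had 493. A myb count was also present in 9 of the 11 cdh5-positive cells and in 7 of the 7 npsn-high cells.

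The 4 program markers were found together in many members but not in all. A count of every marker was present in 25 of 37 members of DP 1 and in 10 of 25 of DP 2. For ikzf1, 34 and 16 members had a count (91.9% and 64%), with median cells at 83.6 and 82.9 CPM. For fli1a the shares were 89.2% and 84%, with median cells at 122 and 71.0 CPM. The lmo2 shares were 75.7% and 60%, with median cells at 108 and 32.1 CPM. These 3 genes were found in more than 50% of the members of each library, and in a smaller fraction of the shallower one; a myb count was required of every member.

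Most members had few endothelial or neutrophil markers, with exceptions in both libraries. After every cell was thinned to 20217 counts, so that depth was equal, the median member had 1 of 22 endothelial markers in either library, whereas the median cdh5-positive cell had 6.5 in DP 1 and 9 in DP 2. Of 12 neutrophil markers the median member had 3 in DP 1 and 2 in DP 2, near the 2.5 and 2 of cdh5-positive cells. Npsn-high cells had a median of 8 in DP 1, and the 1 thinned npsn-high cell of DP 2 had 8. A DP 2 member had 12 of the 22 endothelial markers, with kdrl at 90.1 CPM and 11 counts of myb. Another DP 2 member had 7 of 12 neutrophil markers, with npsn at 274 CPM, 3 counts of myb and lyz (lysozyme) at 23179 CPM. That last cell held 46.6% of the lyz counts of all DP 2 members. These 2 members were singled out by the number of markers they had. The count of shared genes, the lyz, krt8 and krt18a.1 levels and the summed endothelial level are given with and without them. Other levels include them. By summed level more members stood apart. Neutrophil markers summed to 13621 CPM in another DP 2 member, above the 9592 CPM of the lower of the DP 2 npsn-high cells, and to 5878 CPM in a DP 1 member, beside medians of 605 CPM in DP 1 and 251 CPM in DP 2. Endothelial markers summed to 2611 CPM in a DP 1 member, above all 6 cdh5-positive cells of that library, whose highest was 2501 CPM. These further cells stay in every value below.

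Throughout, a gene was called shared when at least 50% of the members of each library had a count of it. Of 14123 genes with a count in any member, 1692 were shared, and they held 84.8% of the counts of DP 1 members and 89.4% of those of DP 2. The shared genes were 65.2% of the 2594 genes that passed in DP 1 and 92.3% of the 1833 that passed in DP 2. In every one of the 62 members 160 genes were found, of which 78 code for ribosomal proteins. In members thinned to equal depth 1136 genes were shared, and without the 2 members that held many endothelial or neutrophil markers 1671 were, of which 1640 belonged to the 1692. Of the 1136 genes, 947 (83.4%) were also found in at least 50% of the thinned cdh5-positive cells of each library. Most genes shared at equal depth were thus not particular to members. Of the 4 program markers, which include myb, required of every member by the rule, 3 were shared at equal depth.

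Levels of the shared genes were similar in the libraries. Within a factor of 2 between DP 1 and DP 2 lay 1380 of them (81.6%), although the median shared gene was higher in DP 1, by 0.36 on the log2 scale. Over the 5477 genes with a mean of at least 10 CPM, levels of log2(CPM + 1) had a Pearson r of 0.783 and a Spearman rho of 0.715. This correlation runs across genes, which are not independent replicates and share the depth of their libraries, and is given as a description. The level of a gene here is its counts as a share of all counts summed over a library's members, scaled to CPM and not corrected for transcript length, so an order of genes by level also reflects the length of their transcripts.

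**Figure D1:**
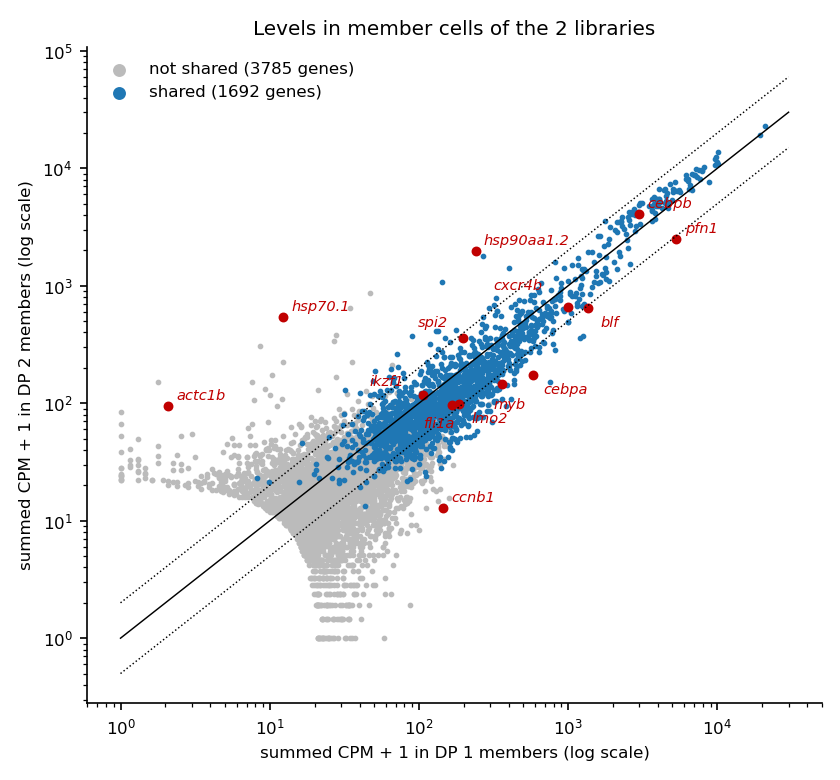
Summed level of each gene in DP 1 members (x axis) against DP 2 members (y axis), as CPM + 1 on log scales, with the 1692 shared genes in blue, other genes in grey and named genes in red. The solid line marks equal levels and the dotted lines a 2-fold difference; 81.6% of the shared genes lie between the dotted lines, while hsp70.1, hsp90aa1.2 and actc1b lie far towards DP 2 and ccnb1 towards DP 1.

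In CPM as measured, the 25 highest shared genes outside the ribosomal and mitochondrial genes included genes of protein synthesis, protein folding and the cytoskeleton. The translation elongation factor eef1a1l1 was at 10156 CPM in DP 1 and 13623 CPM in DP 2, and the chaperones hspa8 and hsp90ab1 were at 6578 and 7173 CPM and at 6727 and 6474 CPM. The actin gene actb2 was at 4929 CPM in DP 1 and 5416 CPM in DP 2, and tmsb4x, for the actin-binding thymosin beta, at 3821 CPM in DP 1 and 3670.2 CPM in DP 2. Each of these genes was found in all 62 members. Among regulators of transcription, cebpb, hmga1a and xbp1, a factor of the unfolded protein response, were also among these 25, with xbp1 at 2593 CPM in DP 1 and 1533 CPM in DP 2.

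Which kinds of genes made up the shared program differed widely between gene lists. Against a background of 8.53% of the 19831 genes in the table, shared genes were 30 of 32 for splicing and ribosome biogenesis, 77 of 97 for nuclear oxidative phosphorylation and 30 of 42 for chromatin. Among receptors they were 2 of 41 for cytokine and growth factor receptors and 7 of 39 for migration and adhesion. No gene was shared among the 22 endothelial, 9 hemogenic, 10 macrophage, 8 lymphoid and 6 thrombocyte markers. These counts describe the lists and were not tested, and a gene of high level passes more easily.

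**Figure D2:**
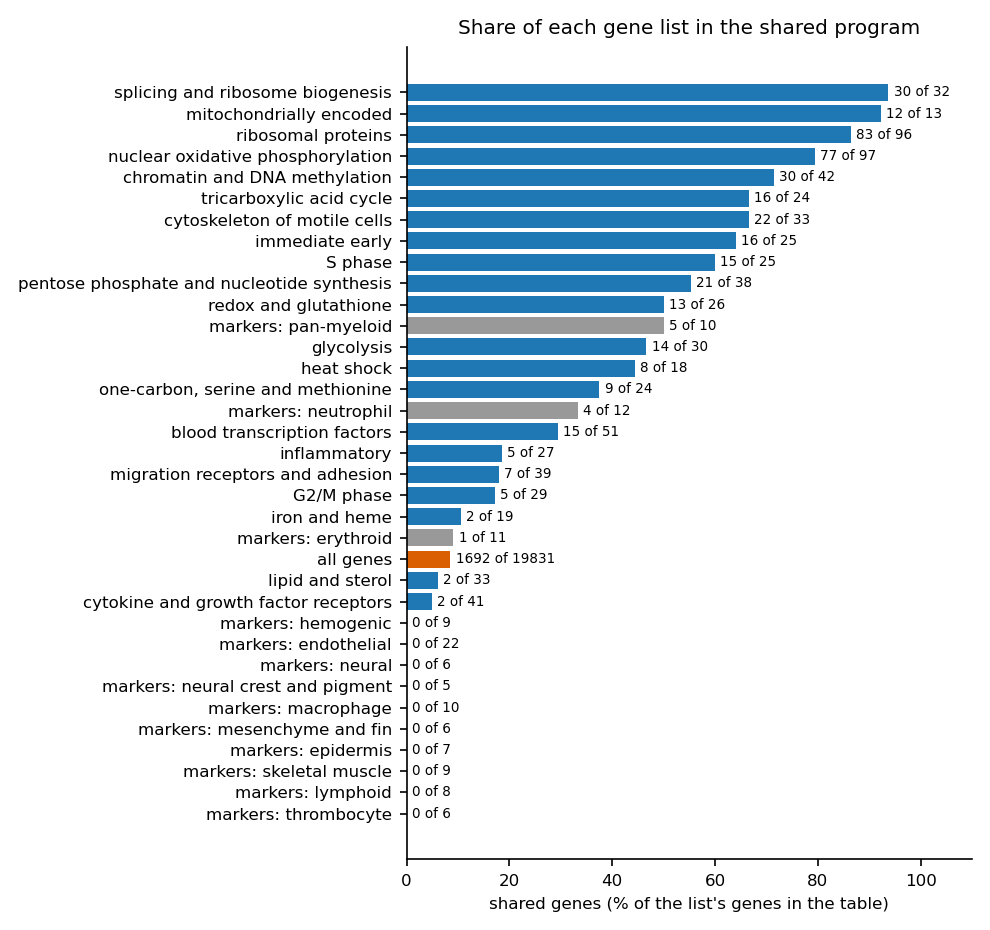
Bars give the percentage of each list's genes that were shared, that is, found in at least 50% of the members of each library; the count stands beside each bar, blue bars are pathway lists, grey bars marker lists and the orange bar all genes. Splicing and ribosome biogenesis (30 of 32) is at the top, all genes reach 1692 of 19831, and the endothelial, hemogenic, macrophage, lymphoid and thrombocyte markers are at 0.

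Among blood transcription factors, 15 of the 51 in the table were shared: cebpb, blf, spi2, cebpa, max, drll.1, klf6a, znfl2a, sox4a, drl, nfil3, cbfb, egr1, drll.2 and tcf3b. In members thinned to equal depth 7 of the 51 were shared, where all genes went from 1692 to 1136. Levels of 9 of the 15 lay within a factor of 2 between the libraries, beside 81.6% of all shared genes. Of the rest of the 15, 5 were more than 2-fold higher in DP 1 and 1 in DP 2. Of the other 36 genes, 8 had no count in any member: gata1a and klf1, factors of red cells, irf8, a factor of macrophages, gfi1b, erg, ikzf2, klf17 and tcf7.

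CCAAT-enhancer binding factors, which in blood act mainly in myeloid cells, were among the shared factors. A count of cebpb was present in every member, from 190.2 to 8000 CPM in DP 1 (median cell 2836) and from 296 to 7771 CPM in DP 2 (median cell 3377). Its summed level was 2989 CPM in DP 1 and 4076 CPM in DP 2, with exact Poisson bounds of 2947 and 3031 for the first and 3992 and 4162 for the second. These bounds cover counting error only and not the variation among cells. The summed levels differed by less than the range of single cells in either library. The related cebpa was present in 33 of 37 and 19 of 25 members. Its level was 582 CPM in DP 1 and 173 CPM in DP 2, and its cells ran from 0 to 1526 CPM in DP 1 and from 0 to 1004 CPM in DP 2. The DP 1 level of cebpa was thus the higher of the pair, by 1.75 on the log2 scale, beside a median difference of 0.52 over all genes tested.

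Zinc-finger genes known from zebrafish blood were a further group. The draculin gene drl, which marks early lateral mesoderm and blood, was at 129.9 CPM in DP 1 and 89.2 CPM in DP 2, found in 56.8% and 68% of members. Its relatives drll.1 and drll.2 were at 169 and 153 CPM and at 41.0 and 71.5 CPM, with shares of 83.8% and 84% and of 59.5% and 72%. For blf (bloody fingers), a zinc-finger gene of zebrafish blood, 35 and 22 members had a count, and the level was 1349 CPM in DP 1 and 645 CPM in DP 2. Single cells ranged for blf from 0 to 4260.2 CPM (median 354) in DP 1 and from 0 to 5619 CPM (median 351) in DP 2, and 1 cell held 39.5% of its DP 1 counts. Another zinc-finger gene, znfl2a, was concentrated still more: 1 cell held 58.0% of its DP 1 counts, the median cells were at 16.9 and 11.95 CPM, and its summed level was 357 CPM in DP 1 and 107 CPM in DP 2. Blood progenitor members therefore differed greatly among themselves in blf and znfl2a although both genes were shared.

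The ETS-factor gene spi2, whose regulatory sequence drove the GFP of the sort, was found in 33 of 37 and 21 of 25 members, at 197 CPM in DP 1 and 362 CPM in DP 2. Its near relative spi1b, the zebrafish gene for the myeloid factor PU.1, was found in 27 of 37 members of DP 1 and in 8 of 25 of DP 2, so it was not shared (exact intervals 55.9 to 86.2% and 14.9 to 53.5%). Thinned to equal depth, the spi1b shares came to 37.1% and 31.8%, while its summed level was 205 CPM in DP 1 and 98.8 CPM in DP 2. Counts of both spi2 and spi1b occurred in 25 members of DP 1 and 5 of DP 2, spi2 alone in 8 and 16, and spi1b alone in 2 and 3. For kdrl, whose regulatory sequence drove the mCherry of the sort, 9 and 11 members had a count, at 2.16 CPM in DP 1 and 16.8 CPM in DP 2. Every member with a kdrl count also had a spi2 count.

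Partners of better known blood factors were shared where the factors were not. The Runx partner cbfb was found in 91.9% and 68% of members, at 152 CPM in DP 1 and 65.1 CPM in DP 2. By contrast runx1, the Runx gene needed for blood cells to leave the endothelium, was found in 4 of 37 and 3 of 25 members, at 8.48 CPM in DP 1 and 9.11 CPM in DP 2. The exact 95% intervals of these shares were 3.03 to 25.4% and 2.55 to 31.2%, and in thinned cells the shares were 2.86% and 13.6%. The level of gata2b, a factor of hemogenic endothelium, was 6.17 CPM in DP 1 and 24.6 CPM in DP 2, with 3 and 5 members positive, and gfi1aa, a repressor active as blood cells emerge, was found in 10 and 2. A runx1 and a gfi1aa count occurred together in 1 member of DP 1 and in 0 of DP 2. A gene with few counts can be missed in a single cell, so these shares give detection at this depth and not expression.

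Other shared factors had broad roles. The Myc partner max was found in 83.8% and 96% of members, and mycn, a Myc-family gene, in 73.0% and 48%, which kept it from being shared. The E-protein gene tcf3b was found in 59.5% and 56%, the HMG-box gene sox4a in 59.5% and 64% and the homeobox gene meis1b, which misses the shared set narrowly, in 54.1% and 48%. Levels of klf6a, a Krüppel-like factor that responds to stimulation, were 142 CPM in DP 1 and 270.0 CPM in DP 2.

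**Figure D3:**
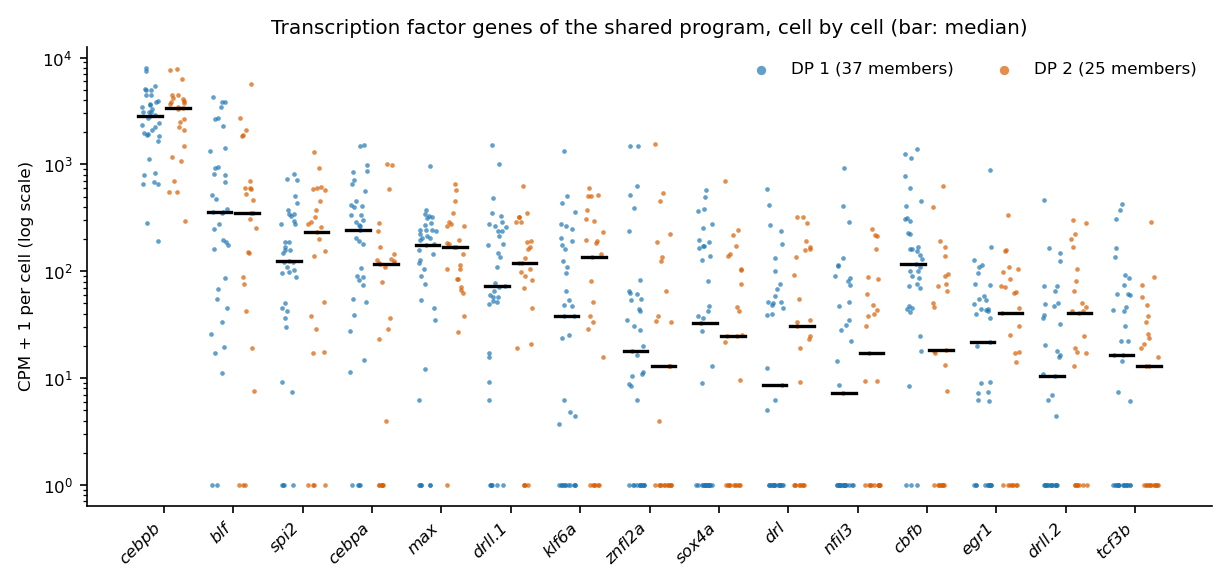
Level of the 15 shared blood transcription factor genes in each member, as CPM + 1 on a log scale, with DP 1 in blue (37 members), DP 2 in orange (25 members) and a black bar at the median cell. Every member has a count of cebpb, while blf and znfl2a run from 0 to 1499 CPM or more between members of the same library.

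Chromatin genes were mostly close in level between the libraries, as were most shared genes. Of 30 shared members of the list of 42, 28 lay within a factor of 2, beside 81.6% of all shared genes. The architectural protein genes hmga1a, hmgn2 and hmgb2b were found in every member, with hmga1a running from 657 to 4448 CPM over DP 1 cells and from 518 to 2725 CPM over DP 2 cells. The de novo DNA methyltransferase gene dnmt3ba was found in 37 of 37 and 22 of 25 members, at 321 CPM in DP 1 and 228 CPM in DP 2, and its relative dnmt3bb.1, expressed in zebrafish blood stem and progenitor cells, in 89.2% and 60%. Of the Polycomb complex that methylates histone H3, ezh2 was at 134 CPM in DP 1 and 152 CPM in DP 2 and eed at 156 CPM in DP 1 and 101 CPM in DP 2, whereas suz12a reached the share in DP 1 but not in DP 2. The remodeller genes chd4b and smarca4a were at 398 and 316 CPM and at 333 and 135 CPM.

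Receptor genes were mostly below the share. In the list of 41 cytokine and growth factor receptor and signalling genes, il6r and the transducer stat3 were shared. The interleukin 6 receptor gene il6r was found in 32 of 37 and 18 of 25 members, at 380.2 CPM in DP 1 and 93.3 CPM in DP 2, and its DP 1 cells ran from 0 to 1753 CPM around a median of 153. That gene was 2.03 higher in DP 1 on the log2 scale and also stands on the list of neutrophil markers. Its co-receptor il6st was found in 48.6% and 36% of members. Receptors that guide blood lineages were rare: kita was found in 1 and 0 members, mpl in 1 and 0, csf3r in 3 and 1, and csf1ra and epor in 0. The macrophage growth factor receptor gene csf1rb was an exception in DP 1, at 99.5 CPM in DP 1 and 7.28 CPM in DP 2.

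Receptors for chemokines and for a signalling lipid were among the shared migration genes. The Cxcl12 receptor gene cxcr4b was found in 34 of 37 and 24 of 25 members, at 995 CPM in DP 1 and 662 CPM in DP 2. Its cells were uneven, from 0 to 8507 CPM in DP 1 (median 199.8) and from 0 to 2811 CPM in DP 2 (median 162). The scavenging receptor for the same ligand, ackr3b, was found in 56.8% and 72% of members, at 151 CPM in DP 1 and 113 CPM in DP 2. For lpar5a, a receptor for lysophosphatidic acid, the shares were 73.0% and 68%.

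Surface proteins cd63 and tspan36, both tetraspanins, the syndecan sdc4 and the sialomucin cd164 completed the shared migration and adhesion genes. The cd63 level was 774 CPM in DP 1 and 736 CPM in DP 2, within a factor of 2, and 97.3% and 96% of members had a count. Levels of tspan36 were 132 CPM in DP 1 and 413 CPM in DP 2 and those of sdc4 133 CPM in DP 1 and 287 CPM in DP 2, both more than 2-fold higher in DP 2. Integrin genes were not shared: itgb2, the common leukocyte integrin chain, was found in 64.9% and 40% of members, itga4 in 40.5% and 24%, and the thrombocyte integrin gene itga2b in 0. The pan-leukocyte phosphatase gene ptprc (CD45) was found in 48.6% and 24%.

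Central carbon metabolism was read through 14 shared genes of 30 in glycolysis and 16 of 24 in the tricarboxylic acid cycle. In members thinned to equal depth, 7 and 9 genes of these lists were shared. Most steps of glycolysis had at least 1 shared gene, from hexokinase (hk1 and hk2) through aldolase (aldoaa) and enolase (eno1a and eno3) to lactate dehydrogenase (ldha and ldhba). Exceptions were the phosphofructokinase genes, with pfkpa found in 24.3% and 44% of members, and the isomerase gene gpia, found in 73.0% and 48%. Aldolase aldoaa was at 749 CPM in DP 1 and 533 CPM in DP 2 and ldhba at 361 CPM in DP 1 and 352 CPM in DP 2. Of 2 genes for glyceraldehyde 3-phosphate dehydrogenase, gapdhs was at 565 CPM in DP 1 and 837 CPM in DP 2, and gapdh was at 37.8 CPM in DP 1 and 76.9 CPM in DP 2. The glucose transporter genes slc2a1a and slc2a1b were found in 0 and in 3 members, all of the latter in DP 1.

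In the mitochondrion, isocitrate dehydrogenase idh2 was found in 36 of 37 and 24 of 25 members, at 673 CPM in DP 1 and 732 CPM in DP 2. Malate dehydrogenase mdh2 was at 259 CPM in DP 1 and 405 CPM in DP 2. Between libraries 14 of the 16 shared cycle genes lay within a factor of 2, beside 81.6% of all shared genes. The 13 mitochondrially encoded genes made up 6.07% of DP 1 counts and 6.34% of DP 2 counts, and 12 of them were shared. Pyruvate carrier genes mpc1 and mpc2 were shared too, at 81.6 and 36.0 CPM and at 127 and 48.3 CPM.

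Nucleotide synthesis was covered by 21 shared genes of 38, of which 20 lay within a factor of 2, beside 81.6% of all shared genes. The CTP synthase gene ctps1a was found in 36 and 24 members, at 532 CPM in DP 1 and 548 CPM in DP 2, with nearly equal median cells of 451 and 451 CPM. Both chains of ribonucleotide reductase were shared, rrm1 at 169 CPM in DP 1 and 144 CPM in DP 2 and rrm2 at 107 CPM in DP 1 and 153 CPM in DP 2. From the pentose phosphate branch, pgd was at 399.7 CPM in DP 1 and 260.0 CPM in DP 2 and tktb at 361 CPM in DP 1 and 351 CPM in DP 2.

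One-carbon and polyamine metabolism gave 9 shared genes of 24, all within a factor of 2 between libraries, beside 81.6% of all shared genes. The hydrolase gene ahcy, which clears the product of methylation reactions, was at 586 CPM in DP 1 and 532 CPM in DP 2, and the cytosolic serine hydroxymethyltransferase gene shmt1 was at 141 CPM in DP 1 and 139.8 CPM in DP 2. Its mitochondrial relative shmt2 was found in 1 member. The first steps of serine synthesis were rare, with phgdh in 13.5% and 8% of members, while the last step, psph, was found in 91.9% and 84%. In polyamine synthesis odc1 was at 461 CPM in DP 1 and 524 CPM in DP 2, and its antizyme genes oaz1a and oaz1b were shared as well.

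Lipid genes were few in the shared program, with 2 of 33: fabp3, for a fatty acid binding protein, and acadvl, for a dehydrogenase of fatty acid oxidation. Sterol synthesis genes stayed rare, with hmgcra found in 2.70% and 16% of members and sqlea, lss and fdft1 in 0. Of 26 redox genes 13 were shared, among them prdx1 to prdx6 of the peroxiredoxins, with prdx2 at 812 CPM in DP 1 and 770.4 CPM in DP 2. Iron and heme genes gave 2 of 19, the ferritin gene fth1a at 521 CPM in DP 1 and 445 CPM in DP 2 and alas1 at 55.4 CPM in DP 1 and 112 CPM in DP 2, while the red-cell gene alas2 was found in 1 member of DP 1 and 1 of DP 2.

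Genes of DNA replication were broadly present, and those of mitosis less so. Of 25 S-phase genes 15 were shared, including pcna in 36 of 37 and 25 of 25 members (at 1147 CPM in DP 1 and 706 CPM in DP 2) and all 6 minichromosome maintenance genes, mcm2 to mcm7. Of 29 G2/M genes 5 were shared, namely cdk1, mki67, aurkb, tpx2 and tuba8l. Summed per cell, S-phase genes spanned 801 to 9387 CPM over DP 1 members (median 3809) and 690.2 to 6561 CPM over DP 2 members (median 3057). The G2/M genes ran from 360.2 to 9510.0 CPM (median 3209) and from 565 to 3827 CPM (median 1894), and 7 of 22 tested G2/M genes were 4-fold or more higher in DP 1, as were 11.3% of all tested genes. The proliferation marker mki67 was found in 81.1% and 84% of members. No phase was called for single cells.

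Immediate early genes, which are switched on within minutes of a stimulus or of handling, were shared for 16 of 25. The AP-1 genes fosab and junbb were at 1154 and 1721 CPM and at 1168 and 1493 CPM, and the survival gene mcl1a was at 821 CPM in DP 1 and 1601 CPM in DP 2. Of inflammatory genes 5 of 27 were shared, among them the cytokine gene il1b, the NF-kappaB inhibitor gene nfkbiab and the feedback inhibitors socs3a and socs3b. For il1b, 1 cell held 70.8% of the DP 1 counts and 1 cell 63.5% of the DP 2 counts, so its summed level of 94.7 CPM in DP 1 and 82.4 CPM in DP 2 mostly reflects those cells. The socs3a level was 319.5 CPM in DP 1 and 684 CPM in DP 2. Whether the sort contributed to these genes was not tested.

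Some myeloid markers were shared by members. Of 10 pan-myeloid markers 5 were shared (cebpa, cebpb, lcp1, laptm5 and srgn), and of 12 neutrophil markers 4 were (lyz, nccrp1, il6r and ncf1). A lyz count was present in 37 of 37 and 23 of 25 members, with median cells at 193 and 74.0 CPM. The lyz level of DP 2 was 1403 CPM with all members and 816 CPM without the 2 members with many markers, and that of DP 1 was 398 CPM. Single cells carried much of these levels: the DP 2 member with 13621 CPM of neutrophil markers, which was not left out, held 45.9% of the lyz counts of all DP 2 members, and the DP 1 member with 5878 CPM held 57.6% of those of DP 1. In cdh5-positive cells lyz was found in 6 of 6 and 5 of 5, at 1247 and 71.7 CPM, and in npsn-high cells it was at 22372 and 26066 CPM. In DP 1, 1 cdh5-positive cell with 7123 CPM of neutrophil markers held 91.7% of the lyz counts of its class. Shares of lyz near those of the cdh5-positive cells are not read as expression in members. The neutrophil gene mpx was found in 35.1% and 36% of members, and tyrobp in 0.

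Of 11 erythroid markers hbae1.1, an embryonic alpha globin gene, was shared, at 432 CPM in DP 1 and 308 CPM in DP 2. Another marker of that list, urod, for an enzyme of heme synthesis, was at 74.0 CPM in DP 1 and 15.0 CPM in DP 2. Near 0 was hbae3, at 1.85 CPM in DP 1 and 0.911 CPM in DP 2, and gata1a, klf1, epor, slc4a1a and hbbe2 had no count. A hbae1.1 count was also present in 6 of 6 and 4 of 5 cdh5-positive cells. Embryonic globin genes are near-identical copies between which counts may have been divided.

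Members were next set beside the cdh5-positive cells of the same libraries. Outside endothelial genes, which the rule bears on directly, few genes lay 4-fold or more apart in the same direction in both libraries. Of 5612 genes tested, 77 (1.37%) were 4-fold or more higher in members and 222 (3.96%) were lower, with the median gene at -0.03 in DP 1 and -0.02 in DP 2 on the log2 scale. Under TMM scaling, which moved those medians to 0.28 and 0.32, the counts were 143 and 162. Without the deepest cell of each class, 33 were higher and 159 lower, of which 10 and 84 were among the first counts.

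Blood transcription factors followed that pattern: 0 of 32 tested were higher in members and 2 were lower, gata2a and gfi1aa. The gfi1aa level was 12.5 CPM in members and 169 CPM in cdh5-positive cells of DP 1, and 6.37 against 30.1 CPM in DP 2. No gene of the chromatin (36 tested), glycolysis (18), tricarboxylic acid (22), nucleotide (35), one-carbon (15), redox (23), S-phase (24) or splicing (32) lists was 4-fold apart in both libraries. In the migration and adhesion list 3 of 20 were lower in members, beside 3.96% of all genes: s1pr1, podxl and spns2, which are known from endothelium. For the immediate early list 1 of 23 was lower, cebpd, and the list's median lay at -0.97 and -0.64.

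Single receptors differed from cdh5-positive cells in DP 2 more than in DP 1. Levels of cxcr4b were 995 CPM in members against 558 CPM in DP 1, and 662 against 78.9 CPM in DP 2. For il6r the values were 380.2 against 352 CPM in DP 1, and 93.3 against 0 CPM in DP 2. The summed spi2 level was lower in members of DP 1 (197 against 901 CPM) and about equal in DP 2 (362 against 381 CPM). Few cells made the DP 1 value: cdh5-positive cells there were at 3631 and 1424 CPM, and the others ran from 0 to 187 CPM. The cdh5-positive cells were not all alike: in DP 1, 2 of 6 had 0 endothelial markers after thinning and 4 had 6 or more.

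First by the rule on the members' side was fabp3. Its level was 155 CPM in members and 9.45 CPM in cdh5-positive cells of DP 1, and 97.9 against 4.30 CPM in DP 2; the last value is 3 counts. Members with a fabp3 count were 27 of 37 and 18 of 25, and cdh5-positive cells 4 of 6 and 2 of 5. Next in order of the smaller difference were cables2b, cops8, a subunit of the COP9 signalosome, and ociad1. The cables2b level was 91.3 against 6.61 CPM in DP 1 and 91.5 against 1.43 CPM in DP 2. The genes xpr1b (a phosphate exporter), gsto2 (a glutathione transferase), hint2, phf6, wdr4, med20, zgc:110366 and si:ch73-299h12.2 completed the 12 largest.

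On the cdh5-positive side, LO018188.1 and fhl2a came first by the rule. The 12 largest differences also included genes known from vessels: flt1 and tie1, receptors of endothelial growth factors and angiopoietins, and spns2, a sphingosine phosphate exporter. The flt1 level was 0 CPM in members and 82.2 CPM in cdh5-positive cells of DP 1, and 0.455 against 66.0 CPM in DP 2. Of 14 tested endothelial markers 9 were lower in members, which the choice on cdh5 favours. The list's summed level was 87.1 CPM in DP 1 members and 355 CPM in DP 2 members, and 180 CPM in DP 2 without the 2 members with many markers. Other genes of this group were foxo1a, sema5a, sema7a, cdc42ep5, arhgef12b, cntf and si:ch211-145b13.6.

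Set beside npsn-high cells, the same members had more of several blood transcription factor and chromatin genes and less of several neutrophil and motility genes. Of 3847 genes tested, 75 (1.95%) were 4-fold or more higher in members in both libraries and 143 (3.72%) were lower, and the median gene lay at 0.36 and 0.30 on the log2 scale. With TMM scaling the counts were 116 and 130, with medians of 0.26 and 0.70. Nearly all DP 2 counts of the npsn-high class came from 1 cell, so these values describe 5 cells of DP 1 and mainly 1 of DP 2. Without the deepest cell of each class 0 genes were higher and 20 lower. That left 1 npsn-high cell of 8549 counts in DP 2, where a floor of 3 counts is a high level. Few genes could then pass as higher in members, so the 0 cannot show whether the 75 genes hold.

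Blood transcription factors were 5 higher and 1 lower of 24 tested, against 1.95% and 3.72% of all genes. Higher in members were spi2, blf, drl, znfl2a and sox4a. Against cdh5-positive cells, 0 of 32 tested factors were 4-fold or more higher in members in both libraries. Missing that limit does not show equal levels, and whether these genes are particular to members was not tested. For blf, every DP 2 cdh5-positive cell lay below the median DP 2 member. In DP 1 all but 1 of the cdh5-positive cells lay below the median DP 1 member. For spi2 the summed DP 1 level was instead lower in members than in cdh5-positive cells. Members had 197 and 362 CPM of spi2, and npsn-high cells 5.04 and 6.52 CPM. For blf the members' levels of 1349 and 645 CPM stood against 41.8 and 111 CPM. Lower in members was spi1b, at 205 and 98.8 CPM against 1633 and 1031 CPM. The cebpb level did not separate the classes, at 4038 and 4769 CPM in npsn-high cells.

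Chromatin genes were 5 of 34 tested on the members' side and 0 on the other, against 1.95% and 3.72% of all genes. The 5 were dnmt3ba, uhrf1 (which guides maintenance DNA methylation), eed, hmgb1b and hmgb3a. The dnmt3ba level was 321 CPM in members against 41.8 CPM in DP 1, and 228 against 6.52 CPM in DP 2. The median of the chromatin list was 0.78 and 0.94. For splicing and ribosome biogenesis 1 of 31 was 4-fold higher, dkc1, a pseudouridine synthase, and the list's median was 1.16 and 1.28. With TMM the medians were 0.66 and 1.51 for chromatin and 1.08 and 1.82 for splicing, beside 0.26 and 0.70 over all tested genes. With DESeq2 size factors they were 0.60 and 0.91 and 0.98 and 1.25, beside 0.19 and 0.27.

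In glycolysis 4 of 17 tested genes were lower in members and 0 higher, against 3.72% and 1.95% of all genes. The 4 were gpia, gapdh, pkma and slc16a3, a lactate exporter. The gapdh level was 37.8 CPM in members and 851 CPM in npsn-high cells of DP 1, and 76.9 against 1050.5 CPM in DP 2. The list's median was -0.84 and -0.88 and stayed negative under both other scalings. Redox genes had a median of -0.80 and -0.85, with 2 of 22 lower (prdx5 and gsr), which stayed negative too, down to -0.10 in DP 2 with TMM. Nucleotide synthesis had 2 of 33 higher in members (prps1a and dhfr) and a median of 0.71 and 0.87, beside 0.36 and 0.30 over all tested genes. With TMM its median was 0.59 and 1.43, beside 0.26 and 0.70. The tricarboxylic acid list had 0 of 22 past 4-fold and a median of 0.06 and 0.10.

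Motility genes were lower in members for 5 of 28 tested cytoskeleton genes (arpc3, coro1a, cap1, capgb and myh9a), and stmn1a, a microtubule regulator of dividing cells, was higher. Over all tested genes 3.72% were lower and 1.95% higher. The arpc3 level, for a subunit of the actin-nucleating Arp2/3 complex, was 221 and 171 CPM in members and 1162 and 1422 CPM in npsn-high cells. Among migration and adhesion genes sdc4 and tspan36 were higher in members and gpr183a and cd164 lower, of 12 tested. The chemokine receptor cxcr4b lay close in the classes, at 896 and 979 CPM in npsn-high cells.

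Immediate early genes were 5 of 22 on the members' side (fosl1a, junbb, egr2a, btg2 and zfp36l1b), beside 1.95% of all genes, with a median of 1.62 and 2.65. Heat shock genes were 5 of 11, all inducible (hsp70.1, hsp70.2, hsp70.3, hsp70l and hsp90aa1.2), with a median of 1.80 and 2.85. In members these heat shock genes also differed strongly between the libraries, as described for the libraries. The myelin-family gene pmp22b led the members' side over all genes, at 679 and 500.4 CPM against 15.1 and 6.52 CPM. It was followed by igfbp1a, an insulin-like growth factor binding protein gene, and the 12 largest also held inka1b, phlda2, si:ch211-161c3.6 and si:dkey-261h17.1.

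The genes furthest on the npsn-high side were of neutrophils, which the choice on npsn favours: mpx, cpa5, lect2l, alox5ap (leukotriene synthesis), ctss2.1 and fcer1gl were among the 12 largest. The mpx level was 4.47 and 11.4 CPM in members and 796 and 646 CPM in npsn-high cells. The others were thy1, elovl1b, aldh8a1, HACD4, zgc:158868 and si:ch211-284o19.8. Of 9 tested neutrophil markers 7 were lower in members, and of 9 pan-myeloid markers 5 were, including srgn at 591 and 837 CPM against 9071 and 12801 CPM.

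**Figure D4:**
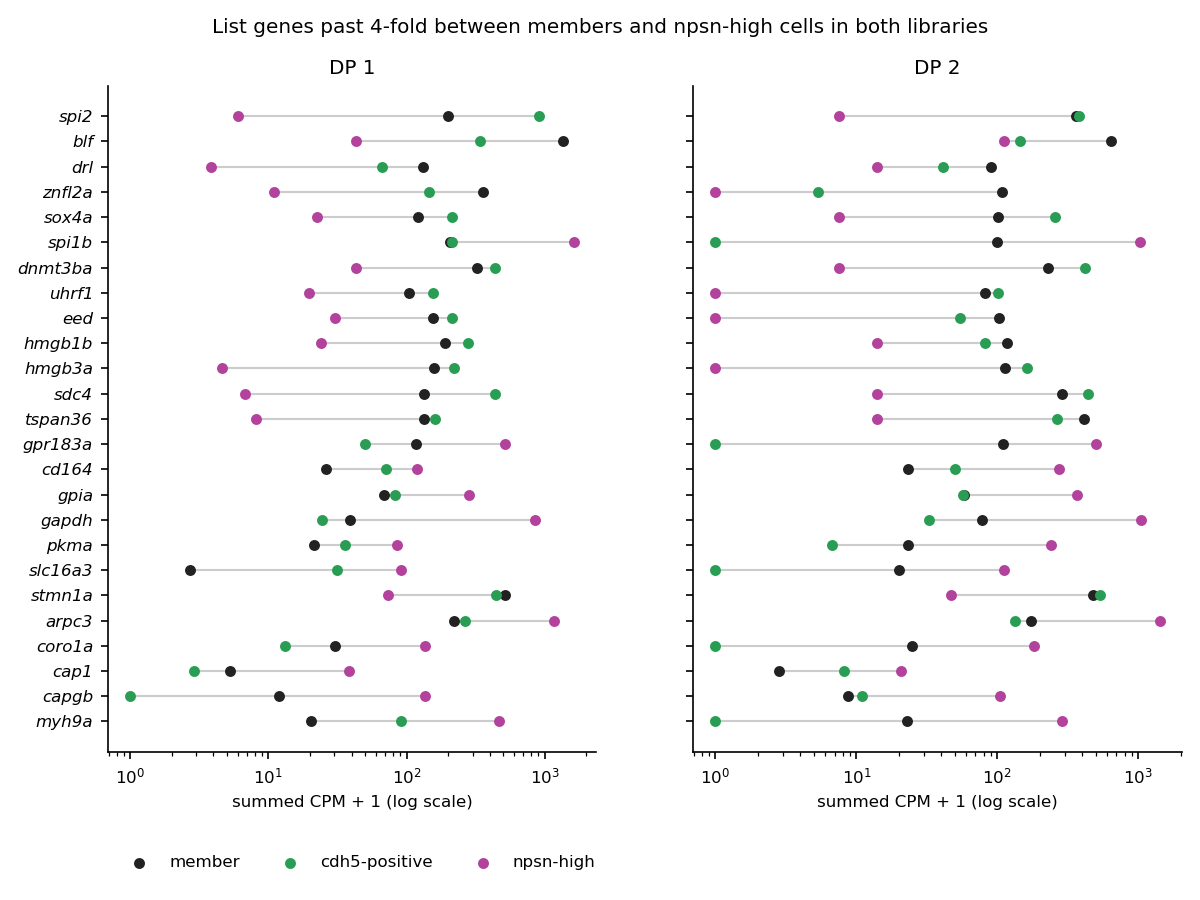
Summed level (CPM + 1, log scale) of list genes that were 4-fold or more apart between members and npsn-high cells in both libraries, with members in black, cdh5-positive cells in green and npsn-high cells in purple, DP 1 left and DP 2 right. The members' spi2, blf and dnmt3ba lie to the right of the npsn-high cells and spi1b, gapdh and arpc3 to the left; a point at 1 had no count, and 1 cell gives 94.4% of the npsn-high counts of DP 2.

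Stress, muscle and mitotic genes were among those that differed between members of the libraries. Of 5475 genes tested, 618 (11.3%) were 4-fold or more higher in DP 1 and 173 (3.16%) lower, with the median gene 0.52 higher in DP 1 on the log2 scale. After TMM scaling, which brought that median to 0.07, the counts were 402 and 325, and with DESeq2 size factors (median 0.10) they were 353 and 264. Depth differed in the same direction, with median totals of 123677 and 61952 counts, and its part in these counts was not tested.

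Among genes of at least 100 CPM and with a count in at least 50% of members of the higher library, the inducible heat shock gene hsp70.1 came first on the DP 2 side. The hsp70.1 level was 11.3 CPM in DP 1 and 542 CPM in DP 2, and hsp90aa1.2, an inducible HSP90 gene, was at 238 CPM in DP 1 and 1981 CPM in DP 2. Summed over hsp70.1, hsp70.2, hsp70.3 and hsp70l, cells ran from 0 to 4088 CPM in DP 1 (median 43.5) and from 34.7 to 12186 CPM in DP 2 (median 518). The ranges overlap, with the median cell higher in DP 2. Copies of hsp70 are near-identical, so counts may have been divided among them. The cdh5-positive cells also had more in DP 2, with medians of 260 and 681 CPM.

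Muscle transcripts separated the libraries further. The 9 skeletal muscle markers summed to 17.1 CPM in DP 1 members and 299 CPM in DP 2 members. Cells ran from 0 to 297 CPM in DP 1 (median 2.73) and from 100.3 to 732 CPM in DP 2 (median 265). The actin gene actc1b of muscle was at 1.08 CPM in DP 1 and 92.9 CPM in DP 2. In DP 2 the cdh5-positive cells (317 CPM) and the npsn-high cells (346 CPM) held similar levels. A muscle count was thus present in all 22 DP 2 members deep enough to be thinned, at about the level of the other DP 2 classes, and is not read as expression in members.

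Further genes higher in DP 2 members by the same rule were cd59, a membrane inhibitor of complement, csf3b, a granulocyte growth factor gene, nfkbiaa, cbx7a and si:ch73-335l21.4. The cd59 level was 7.56 CPM in DP 1 and 307 CPM in DP 2, in 3 of 37 and 15 of 25 members. For csf3b it was 27.0 CPM in DP 1 and 379 CPM in DP 2, in 9 and 19 members. The keratin genes krt8 and krt18a.1 were at 150 and 172 CPM in DP 2, but at 32.8 and 29.8 CPM without the 2 members with many markers. These are the 2 epidermal markers tested, both 4-fold or more higher in DP 2 with all members, as were 3.16% of all tested genes. So were 4 of 6 tested endothelial markers (pecam1, dll4, sox7 and cldn5b), whose list fell from 355 to 180 CPM in DP 2 without those members, as given above.

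On the DP 1 side were cell cycle genes and the helix-loop-helix inhibitor id2a. The cyclin gene ccnb1 was at 144 CPM in DP 1 and 11.8 CPM in DP 2, found in 26 of 37 and 6 of 25 members, and ube2c, which works in mitotic protein degradation, at 145 CPM in DP 1 and 12.3 CPM in DP 2. In thinned cells the ccnb1 shares were 57.1% and 18.2%. The id2a level was 132 CPM in DP 1 and 13.7 CPM in DP 2. Of 9 tested iron and heme genes 3 were 4-fold or more higher in DP 1, as were 11.3% of all tested genes. These 3 were tfr1b, a transferrin receptor gene, and urod and fech, for enzymes of heme synthesis. Also among the 12 largest were chchd4a, timm9, mrps31, eif2b1, meaf6, MZT1, CABZ01058261.1 and si:ch73-308l14.2, several of them for mitochondrial proteins.

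**Figure D5:**
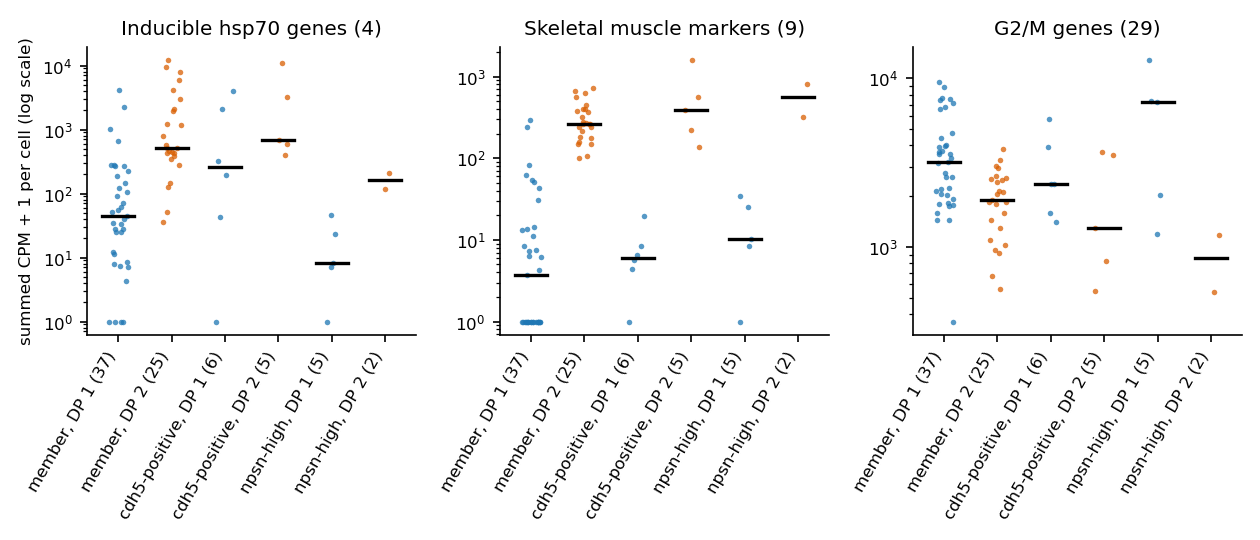
Summed CPM + 1 per cell (log scale) of the 4 inducible hsp70 genes, the 9 skeletal muscle markers and the 29 G2/M genes, for members, cdh5-positive cells and npsn-high cells of DP 1 (blue) and DP 2 (orange), with the number of cells in brackets and a bar at the median. DP 2 members have a median of 518 CPM of hsp70 genes against 43.5 in DP 1, and 265 against 2.73 CPM of muscle markers, while the G2/M median is lower in DP 2 (1894 against 3209 CPM).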

How the data were processed

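Counts per gene and cell are whole numbers in the authors' deposited table and were used unchanged. The genome build GRCz11 and the tools Trimmomatic 0.36 and HISAT2 2.1.0 are named per the submitters' processing notes, with the counting tool, collapsing of identical molecules and use of strand not given in the sources used here. Members and gene lists were chosen with earlier results of these data known. Counts were summed per library and class and divided by their total (CPM). Between classes, genes with a mean of at least 10 CPM were compared, and a gene was called apart at 4-fold or more in the same direction in both libraries. A level under 3 counts of a class was raised to that floor, and a gene was left out where this turned its direction. No test was run, since the rule uses the contrasts and there are 2 libraries. Shares carry exact Clopper-Pearson and sums exact Poisson 95% intervals, for counting error only. The median nonzero entry was 8, and if entries are reads rather than molecules, the Poisson intervals are too narrow. Thinning drew 20217 counts per cell without replacement (the 10th percentile of totals, seed 1), which left 35 and 22 members. Cells were sorted singly and were not screened for doublets.

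The text names list genes, the 25 shared genes highest in mean CPM per cell outside ribosomal and mitochondrial genes, and 12 genes per direction with the largest smaller difference over the libraries and at least 20 counts. Between libraries these needed 100 CPM and a count in 50% of members. A gene named by this rule is not reported here. Of 708 listed or named genes 531 matched the Ensembl name table. Other scalings were TMM (edgeR 4.0.16) and DESeq2 1.42.0 size factors in R 4.3.3; the rest used Python 3.11.15, numpy 2.4.6, scipy 1.17.1 and pandas 2.3.3. The counting was tested on simulated data.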

Additional observations from a re-analysis of the deposited data

How the results depend on the processing

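Without one library, the 62 members became 25 to 37 and the 1692 shared genes 1833 to 2594. Requiring presence in 25% or 75% of members moved the count of shared genes to 3374 or 781. A fold of 2 gave 312 higher and 535 lower against cdh5-positive cells, 470 and 393 against npsn-high cells, and 1778 and 490 between DP 1 and DP 2. With a single library, counts against cdh5-positive cells ran from 514 to 624 higher and from 900 to 928 lower, and against npsn-high cells from 414 to 732 and from 475 to 740. Leaving out the deepest cell of each class gave 33 higher against cdh5-positive cells and 0 higher and 20 lower against npsn-high cells. In DP 2 the counts against npsn-high cells then rest on 1 shallow cell, beside which few genes could pass as higher. TMM scaling gave 143 higher against cdh5-positive cells, 116 higher against npsn-high cells, and 402 and 325 between libraries, for which DESeq2 size factors gave 353 and 264. Without the filter on low levels the libraries differed by 1601 and 1252 genes, and with means of per-cell CPM 338 were lower in DP 1. Of the other 62 values for these counts each stayed within 1.5 times, among them a minimum of 1000 genes, npsn limits of 200 and 1000 CPM and a myb count of 5. The npsn limit of 1000 CPM took the same cells as that of 500 CPM, so its values were fixed. Similar counts need not hold the same genes. With means of per-cell CPM, 50 of the 77 genes higher in members than in cdh5-positive cells stayed, and 132 of the 222 lower. Against npsn-high cells 54 of 75 and 108 of 143 stayed, and between libraries 335 of 618 and 104 of 173. Leaving out the members with many endothelial or neutrophil markers, and keeping only cdh5-positive cells with at least 6 endothelial markers, were chosen after seeing the data. No paired analysis was possible because the results come from no test. Depth limits genes of few counts, which single cells can miss.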
